A study of Homo sapiens with 4 samples.

Results

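RN7SK encodes 7SK, a small nuclear RNA that holds the kinase complex P-TEFb in an inactive state. It was examined with 6 genes for proteins of the same particle, in A549 lung carcinoma epithelial cells depleted of the proteasome activator PSME4. The members were the rows of the count table for RN7SK, HEXIM1, LARP7, MEPCE, CDK9, CCNT1 and CCNT2, 7 genes of 15037, and all 7 passed the filter on low counts. RN7SK was chosen by its lower count in the PSME4 knockdown in these same libraries, and the others by their known part in the particle, so every fold change of a member is given as a description and without a test. There were 4 libraries of polyadenylated RNA, 2 from A549 cells with a knockdown labelled PSME4 KD and 2 from A549 cells with a knockdown labelled RFP KD (control KD). The labels name no method of knockdown, no time and no clone. Nothing in them says whether the libraries of a group were grown as separate cultures, so spreads and p-values describe these libraries and may be technical.

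7SK is made by RNA polymerase III and is among the most abundant small RNAs of the nucleus. MEPCE methylates its 5′ end, LARP7 binds its 3′ end, and a dimer of HEXIM1 bound to its 5′ hairpin inhibits P-TEFb, which consists of CDK9 and cyclin T1 or T2 (CCNT1, CCNT2). When P-TEFb leaves the particle, it phosphorylates RNA polymerase II and the factors that hold it near promoters, and paused polymerase moves on into the gene.

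The RN7SK transcript of GENCODE 29 is 328 nt long and lies at positions 52995621 to 52995948 of chromosome 6 on the plus strand of GRCh38. The first bases are shown for the motif that HEXIM1 recognises, and the last bases because the libraries were of polyadenylated RNA. In the first 110 bases, capitals mark GATC, the DNA spelling of the motif in the 5′ hairpin that HEXIM1 recognises. These letters occur 3 times, at bases 12, 41 and 63, and nowhere further along. Which of the copies lie in the hairpin or meet HEXIM1 was not examined. GATC reads the same on both strands. Of 201525 GENCODE 29 transcripts, RN7SK and its pseudogenes included, 0.367% hold GATC at least as often in their first 110 bases. In the last 60 bases of RN7SK and of the polymerase III RNAs RMRP and RPPH1, capitals mark the longest run of A, or in RPPH1 the first of the runs of that length.
RN7SK, bases 1 to 110: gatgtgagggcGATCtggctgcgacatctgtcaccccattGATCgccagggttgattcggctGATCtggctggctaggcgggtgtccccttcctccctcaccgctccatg
RN7SK, bases 269 to 328: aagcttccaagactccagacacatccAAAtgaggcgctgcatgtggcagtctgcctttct
RMRP, bases 209 to 268: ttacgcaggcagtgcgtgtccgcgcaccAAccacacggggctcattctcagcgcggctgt
RPPH1, bases 274 to 333: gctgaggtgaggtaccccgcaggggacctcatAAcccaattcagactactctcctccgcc

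None of these 3 ends is a run of A. Annotated transcripts leave out any added poly(A) tail, so these ends cannot show whether one was present. In textbook accounts these RNAs carry no poly(A) tail. The longest run of A in the whole RN7SK transcript is 3 bases, against 5 in MEPCE, 7 in CDK9 and CCNT2, 10 in LARP7 and CCNT1 and 11 in HEXIM1, each in its longest transcript. Whether such runs bear on the selection for poly(A) was not tested. Since the libraries were of polyadenylated RNA, RN7SK counts describe what passed that selection. They need not follow the amount of 7SK in the cell. The gene also has many copies. Of the 279 windows of 50 bases in RN7SK, 215 occur letter for letter in transcripts of 13 other genes, mostly 7SK pseudogenes (RN7SKP71 holds 96, RN7SKP203 94), and the 64 windows found in no other gene all begin at base 215 or later. A duplicate annotation of the same locus (RF00100), which holds all 279, is left out of these numbers. GENCODE 29 lists 293 pseudogenes named RN7SKP, and the count table has none of them. Of the 13 other genes, only PLCG2, which holds 40 of the windows, has a row there. No source used here gives how reads with several matches were counted, so the RN7SK count is uncertain. The nearest protein-coding gene, GSTA4, lies 243 bases away on the other strand and does not overlap it.

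Levels are in CPM, a count as a share of the TMM-scaled library total. Depth was 11766371 and 11769392 counts in control KD 1 and 2, and 15208588 and 14845701 counts in PSME4 KD 1 and 2. It ran with the group, and its part in the results was not tested. In all, 13497 genes were tested. PSME4 itself had 158 and 180 CPM in the control KD libraries against 75.3 and 85.1 CPM after its knockdown, 2.11-fold lower. The simple epithelial keratins KRT8 and KRT18 and the cadherin CDH1 were at 201 to 4119 CPM in every library, while epithelial EPCAM (5.42 to 7.88 CPM) and KRT19 (1.71 to 3.78 CPM) were low. Of the myeloid markers, CD68 was at 23.7 to 33.5 CPM and CD14 at 4.73 to 7.16 CPM. Leukocyte PTPRC, endothelial PECAM1 and VWF, and the lung lineage genes NKX2-1 and SFTPB have no row in the table. COL1A1, a fibroblast collagen, was at 10.6 (control KD 1), 11.4 (control KD 2), 17.3 (PSME4 KD 1) and 19.4 CPM (PSME4 KD 2). PDGFRA, a receptor of fibroblasts, went the other way, from 2.60 and 2.58 CPM in control KD to 0.723 and 1.31 CPM in PSME4 KD. The part of these markers in the results was not tested.

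RN7SK was 6.36-fold lower in PSME4 KD, but its libraries also differed widely within each group. It had 269 counts (23.3 CPM) in control KD 1, 85 counts (7.31 CPM) in control KD 2, 21 counts (1.38 CPM) in PSME4 KD 1 and 52 counts (3.41 CPM) in PSME4 KD 2. Both control KD libraries lay above both PSME4 KD libraries, and the 95% exact Poisson intervals of the 4 values, which cover counting error only, did not meet. They ran from 20.6 to 26.2, from 5.84 to 9.04, from 0.854 to 2.11 and from 2.55 to 4.47 CPM. The group values were 15.3 ± 11.3 CPM (SD, n = 2) and 2.40 ± 1.44 CPM (SD, n = 2), a log2 fold change of −2.67 (SE 0.41). Control KD 1 exceeded control KD 2 by 3.18-fold, and PSME4 KD 2 exceeded PSME4 KD 1 by 2.47-fold. Of 3362 tested genes with a mean CPM within 2-fold of that of RN7SK, 99.97% had a smaller log2 gap between the control KD libraries and 99.64% a smaller gap between the PSME4 KD libraries. Leaving out control KD 1 gave a log2 fold change of −1.61 and leaving out control KD 2 one of −3.27. Leaving out PSME4 KD 1 gave −2.16, and leaving out PSME4 KD 2 gave −3.44. In poly(A)-selected RNA from whole cultures, fewer cells with 7SK, less 7SK per cell and less 7SK carried through the selection cannot be told apart.

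**Figure D1:**
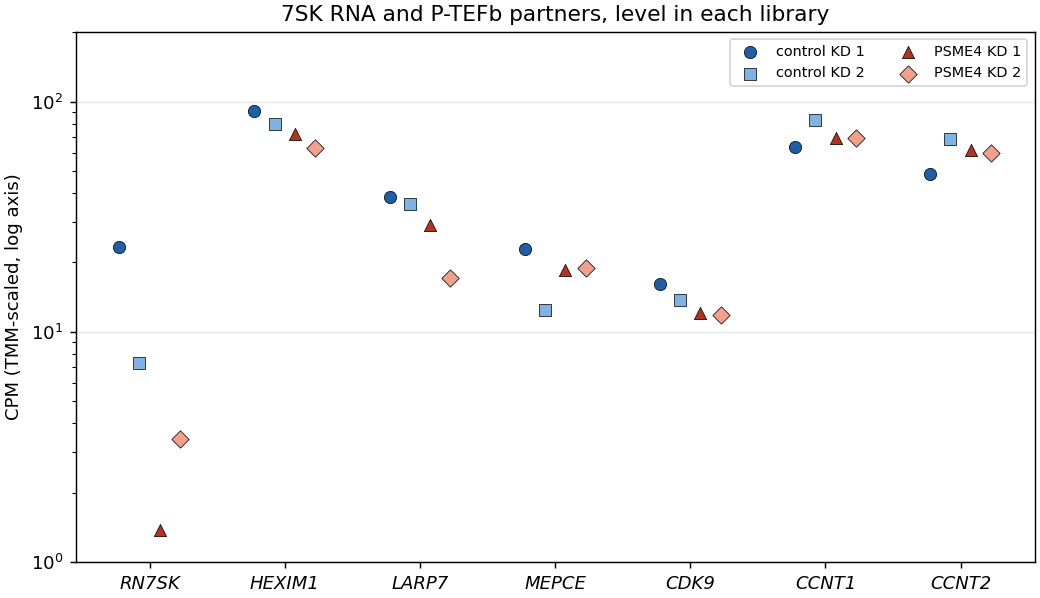
Level of each member in each library, in TMM-scaled CPM on a log axis, with 1 point per library. RN7SK spreads from 1.38 to 23.3 CPM over the 4 libraries, while CDK9 lies between 11.9 and 16.2 CPM.

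HEXIM1, the inhibitor that 7SK carries, was the member with the highest CPM in control KD 1 and PSME4 KD 1, and CCNT1 in control KD 2 and PSME4 KD 2. Its gene spans positions 45148502 to 45152101 of chromosome 17. HEXIM1 mRNA stood at 91.1 (control KD 1), 79.8 (control KD 2), 72.3 (PSME4 KD 1) and 62.7 CPM (PSME4 KD 2). Both control KD libraries were above both PSME4 KD libraries, and the log2 fold change was −0.34 (SE 0.20).

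LARP7, the protein at the 3′ end of 7SK, had the lowest fold change after RN7SK itself. Its gene spans positions 112636964 to 112657592 of chromosome 4. It was at 38.5 and 35.9 CPM in control KD 1 and 2, at 29.1 CPM in PSME4 KD 1 and at 17.1 CPM in PSME4 KD 2. The groups did not overlap, and PSME4 KD 2 stood well below PSME4 KD 1. The log2 fold change of −0.69 (SE 0.24) became −0.32 without PSME4 KD 2 and −1.12 without PSME4 KD 1. ZGRF1 overlaps LARP7 on the other strand, and no source used here gives whether the counting used strand.

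MEPCE, the capping enzyme, did not separate the groups. Its values were 22.8 (control KD 1), 12.4 (control KD 2), 18.5 (PSME4 KD 1) and 18.8 CPM (PSME4 KD 2), so the PSME4 KD libraries lay between the control KD libraries. The log2 fold change was 0.08 (SE 0.25), and it was 0.59 without control KD 1 and −0.29 without control KD 2. ZCWPW1 overlaps MEPCE, at positions 100428790 to 100434126 of chromosome 7, on the other strand.

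The subunits of P-TEFb differed little between groups. CDK9, the kinase, was at 16.2 (control KD 1), 13.7 (control KD 2), 12.1 (PSME4 KD 1) and 11.9 CPM (PSME4 KD 2), a log2 fold change of −0.32 (SE 0.24) with no overlap. CCNT1 was at 63.2 (control KD 1), 83.2 (control KD 2), 69.8 (PSME4 KD 1) and 69.3 CPM (PSME4 KD 2) (log2 fold change −0.07, SE 0.20). CCNT2 was at 48.6 (control KD 1), 68.9 (control KD 2), 61.7 (PSME4 KD 1) and 59.7 CPM (PSME4 KD 2) (log2 fold change 0.05, SE 0.21). For both cyclins the PSME4 KD libraries lay inside the range of the control KD libraries, control KD 2 being the higher of those. CDK9 lies at positions 127785679 to 127790787 of chromosome 9, CCNT1 at 48688458 to 48716998 of chromosome 12 and CCNT2 at 134918235 to 134959342 of chromosome 2, where CCNT2-AS1 overlaps it on the other strand. The cyclins and MEPCE had fold changes within 1 SE of 0.

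In edgeR's quasi-likelihood fit, with p adjusted over all tested genes by Benjamini-Hochberg, 1 of the 7 members had an adjusted p under 0.05, RN7SK, against 10.6% of tested genes in either direction, 6.00% lower and 4.56% higher. Since this contrast chose RN7SK, nothing is read from that count. The log2 fold change of RN7SK was −1.61 with control KD 1 left out and −2.16 with PSME4 KD 1 left out. The groups did not overlap in 4 of 7 members (RN7SK, HEXIM1, LARP7 and CDK9), all lower in PSME4 KD, and in 55.0% of tested genes in either direction. The median log2 fold change was −0.32 over the 7 members and −0.0021 over all tested genes. In the authors' deposited table, 0 of the 7 had an adjusted p under 0.05, against 6.46% of its rows. There 2 of the 7 had an unadjusted p under 0.05, against 2924 of all 15037 rows. The authors' deposited table gives log2 fold changes of control KD over PSME4 KD, 2.67 for RN7SK and 0.68 for LARP7. DESeq2 called 0 of the 7, beside 1129 of 15037 genes in all. With limma voom RN7SK and LARP7 were called, beside 1394 of 13497 genes in all.

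**Figure D2:**
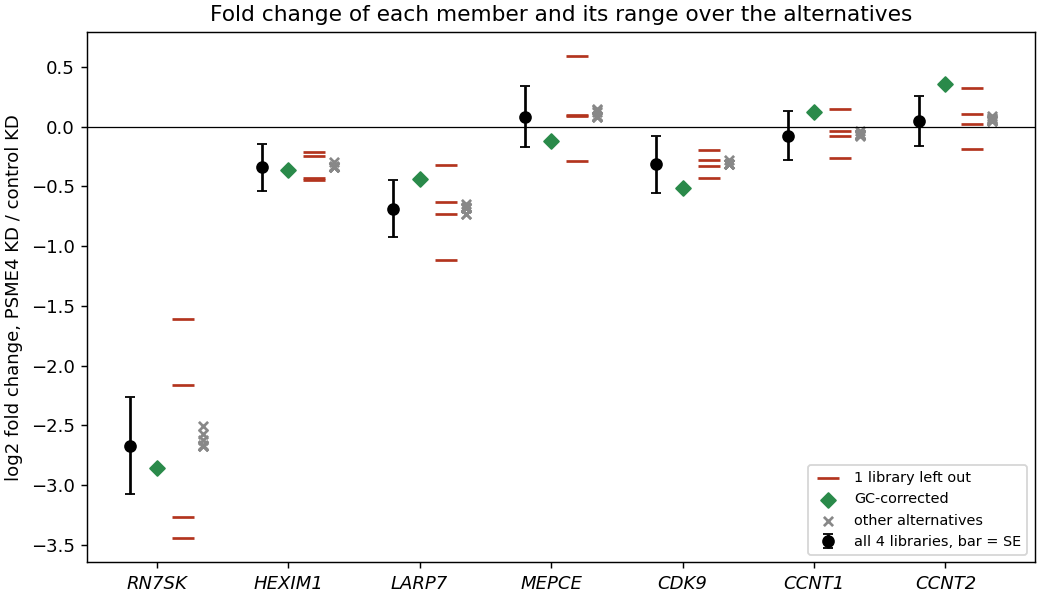
Log2 fold change of each member (PSME4 KD over control KD, SE bars) from all 4 libraries, with each library left out, after GC correction and under the other alternatives. RN7SK is at −1.61 or lower in all of them, and MEPCE, CCNT1 and CCNT2 lie on both sides of 0.

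Per length, 7SK changed its place among the members from library to library. In CPM per kb of the longest GENCODE 29 transcript, RN7SK was at 71.0 in control KD 1, far above HEXIM1 at 25.3, which came next. In control KD 2 the level of RN7SK was 22.3 per kb and that of HEXIM1 22.2 per kb, which do not differ beyond the counting error of RN7SK. In the PSME4 KD libraries HEXIM1 stood highest, at 20.1 and 17.4 CPM per kb, and RN7SK was at 4.21 in PSME4 KD 1, the lowest of the 7, and at 10.4 in PSME4 KD 2, in second place. CDK9 at 4.91 in PSME4 KD 1 and CCNT1 at 9.94 in PSME4 KD 2 lay inside the counting error of RN7SK, so these places are not resolved. Over the control KD libraries the order of mean levels per kb was RN7SK (46.6), HEXIM1 (23.7), LARP7 (15.9), CCNT1 (10.5), CCNT2 (8.49), CDK9 (6.06) and MEPCE (5.81). The ranges of the neighbours RN7SK and HEXIM1 overlapped there, as did those of CCNT1 and CCNT2 and those of CDK9 and MEPCE. How well RNA as short as 7SK was recovered beside mRNA was not tested.

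Base composition set the members apart as well. Over all tested genes the median log2 fold change ran from −0.31 in the decile of lowest GC content to 0.30 in the ninth, and the log2 ratio of control KD 2 to control KD 1 ran from 0.26 in the first decile to −0.35 in the tenth. RN7SK, at 58.2% GC, lay in decile 9, where the median gene was higher in PSME4 KD, and CDK9 (55.1%) and MEPCE (61.7%) lay in deciles 8 and 10. LARP7 (38.1%) and CCNT2 (37.0%) lay in decile 1 and CCNT1 (40.8%) in decile 3, where the median gene was lower. With the GC trend of each library removed, RN7SK was at −2.86, CDK9 at −0.51, LARP7 at −0.44 and HEXIM1 at −0.36 on the log2 scale. MEPCE then stood at −0.12, CCNT1 at 0.12 and CCNT2 at 0.36, so MEPCE and CCNT1 changed sign.

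**Figure D3:**
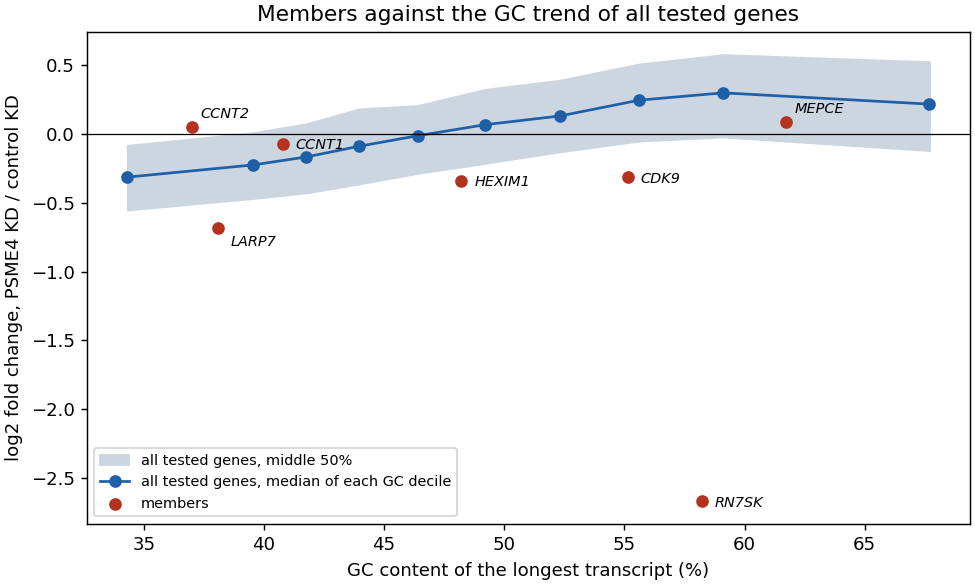
Log2 fold change of the members against the GC content of the longest transcript, over the median (line) and middle 50% (band) of all tested genes in deciles of GC content. RN7SK lies far below the band, at 58.2% GC and −2.67, and MEPCE lies inside it.

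Of 21 listed polymerase III RNAs other than 7SK, 8 had a row in the table and 5 could be tested. This list and the lists in the paragraphs below were chosen with earlier results of these data known. Their shares and adjusted p-values are therefore a description and no independent test. By edgeR RMRP and RPPH1 fell, and RNY5, RN7SL1 and RN7SL2 did not pass. RMRP, the RNA of the RNase MRP particle, had 354 and 144 counts in control KD 1 and 2 and 27 and 94 counts in PSME4 KD 1 and 2, a log2 fold change of −2.43 (SE 0.38, adjusted p = 0.000154). RPPH1, the RNA of RNase P, had 61, 26, 2 and 21 counts in the same order (−2.30, SE 0.54, adjusted p = 0.00762). For both, as for RN7SK, control KD 1 was highest, followed by control KD 2, then PSME4 KD 2, with PSME4 KD 1 lowest. RNY5, a Y RNA, had 82 counts in control KD 1 and 33, 35 and 36 in the other libraries (−1.09, SE 0.38, adjusted p = 0.0654). The signal recognition particle RNAs RN7SL2 (−0.63, SE 0.28) and RN7SL1 (−0.12, SE 0.38), near-identical copies that can share reads, did not pass, and RN7SL1 was highest in PSME4 KD 2. After the GC correction RN7SL2 passed as well (−0.84), which made 3 called. RNY5 had no GC value and was not tested in that fit. RN7SL3, VTRNA1-3 and RNY1, with at most 10 counts in any library, were not tested. The share called, all lower, was 40.0% of 5 genes, against 6.00% of all tested genes that were lower and 10.6% in either direction. The median log2 fold change was −1.09. limma voom called 2 of the 5 and DESeq2 0. With control KD 1 or control KD 2 left out, the median over 6 tested genes was −0.72 or −1.48. With PSME4 KD 1 or PSME4 KD 2 left out, it was −1.01 or −1.29. RMRP then ranged from −3.57 to −1.64 and RPPH1 from −4.72 to −1.44.

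**Figure D4:**
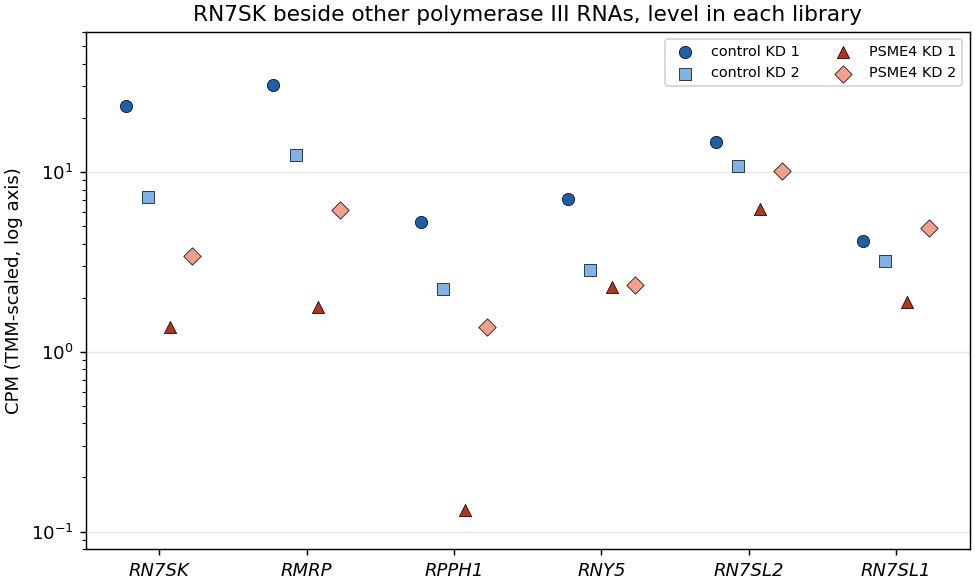
Level of RN7SK and of the 5 tested polymerase III RNAs in each library, in TMM-scaled CPM on a log axis, with 1 point per library. RN7SK, RMRP and RPPH1 share the order control KD 1, control KD 2, PSME4 KD 2, PSME4 KD 1, and RN7SL1 does not. RNY5 and RN7SL2 have it only by close values. RNY5 was at 2.84 (control KD 2), 2.36 (PSME4 KD 2) and 2.30 CPM (PSME4 KD 1). RN7SL2 was at 10.7 CPM in control KD 2 and 10.2 CPM in PSME4 KD 2.

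The 5 genes whose pattern over the 4 libraries was nearest to that of RN7SK were named by the Euclidean distance between centred log2 CPM values. They were RMRP (0.43), the sulfotransferase gene CHST1 (0.80), the noncoding RNA LINC01322 (0.87), RPPH1 (0.93) and UBE2QL1, a gene of the ubiquitin-conjugating family (1.03), where the median distance over 13094 genes was 2.92. CHST1, LINC01322 and UBE2QL1 had at most 46 counts in any library. RNA classes known to lack a poly(A) tail did not all follow RN7SK. The summed level of 10 small RNAs (the RNU, RNY, VTRNA and RN7SL rows, RMRP and RPPH1) was 66.7 and 35.3 CPM in control KD 1 and 2 and 15.2 and 27.7 CPM in PSME4 KD 1 and 2. These sums had the order of RN7SK, but they include RMRP. It gave 30.6 and 12.4 CPM of them in control KD 1 and 2 and 1.77 and 6.17 CPM in PSME4 KD 1 and 2. The 107 small nucleolar RNAs summed to 174 and 192 CPM in control KD 1 and 2 and to 128 and 132 CPM in PSME4 KD 1 and 2, lower in PSME4 KD without a drop from control KD 1 to control KD 2. The 31 replication-dependent histone genes summed to 188, 189, 207 and 165 CPM, and the 4 small Cajal body RNAs to 2.94, 2.06, 2.04 and 3.35 CPM, in the same order of libraries, with overlapping groups. Of 64 tested small RNAs other than RN7SK, 10 (15.6%) had the library order of RN7SK, as did 5.97% of all tested genes. The part of the poly(A) selection in the RN7SK difference was not tested.

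Of the machinery that makes polymerase III RNAs, 4 of 32 tested genes fell and 28 did not pass the test. This share of 12.5%, all lower, compares with 6.00% of all tested genes that were lower and 10.6% in either direction. The median log2 fold change was −0.08. SNAPC3, a subunit of the complex that binds the promoter of 7SK and of the U6 RNA, stood at 141 (control KD 1), 166 (control KD 2), 91.6 (PSME4 KD 1) and 77.8 CPM (PSME4 KD 2) (−0.86, SE 0.20, adjusted p = 0.00638). SNAPC1, another subunit of it, was at 40.9 ± 4.82 CPM in control KD and 22.5 ± 12.0 CPM in PSME4 KD (SD, n = 2; −0.86, SE 0.26, adjusted p = 0.0318), and it passed neither after the GC correction (−0.60) nor by DESeq2 (−0.85). Omitting PSME4 KD 1 put SNAPC1 at −1.55 and omitting PSME4 KD 2 put it at −0.37. The promoter factors GTF3C6 (−1.26, SE 0.23, adjusted p = 0.000812) and GTF3A (−0.65, SE 0.20, adjusted p = 0.0370) act at other polymerase III genes, since 7SK does not use them. GTF3A was at −0.40 with control KD 1 omitted. The median over the 32 genes was −0.06 without control KD 1 and −0.09 without control KD 2. It was −0.09 without PSME4 KD 1 and −0.05 without PSME4 KD 2.

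Genes on the list of other 7SK and P-TEFb regulators were mostly not past the test. The list includes LARP1, LARP4, LARP4B and LARP6, family relatives of LARP7 whose own link to 7SK was not examined. Among its 33 genes, 3 fell and 30 did not pass. This share of 9.09%, all lower, stands beside 6.00% of all tested genes that were lower and 10.6% in either direction. The median log2 fold change was −0.19. SSB, the La protein that binds new polymerase III transcripts at their 3′ ends, was at 272 (control KD 1), 326 (control KD 2), 197 (PSME4 KD 1) and 142 CPM (PSME4 KD 2) (−0.82, SE 0.20, adjusted p = 0.0110). The chaperone HSP90AA1 (−0.86, SE 0.22, adjusted p = 0.0130) and the splicing factor SRSF2 (−0.60, SE 0.19, adjusted p = 0.0436) also fell, SRSF2 neither after the GC correction (−0.55) nor with library size as the only scaling (−0.56). Without PSME4 KD 2 HSP90AA1 was at −0.57. With library size alone 3 genes of this list were called higher and 2 lower. HEXIM2, the paralog that can stand in for HEXIM1, was at 6.58 (control KD 1), 4.90 (control KD 2), 7.62 (PSME4 KD 1) and 5.18 CPM (PSME4 KD 2) (0.16, SE 0.31). The median over these 33 was −0.16 without control KD 1 and −0.15 without control KD 2. It was −0.26 without PSME4 KD 1 and −0.18 without PSME4 KD 2.

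The factors that P-TEFb works with moved both ways. Of 35 tested elongation genes 3 rose, 2 fell and 30 did not pass, a share of 14.3% against 10.6% of all tested genes, with a median log2 fold change of 0.05. EAF1, a partner of the ELL elongation factors, rose from 22.4 and 28.8 CPM in control KD 1 and 2 to 40.9 and 46.7 CPM in PSME4 KD 1 and 2 (0.77, SE 0.22, adjusted p = 0.0217). PAF1 (0.66, SE 0.20, adjusted p = 0.0326), of the PAF complex, also rose, but not after the GC correction (0.44). The elongation factor TCEA1 (−0.92, SE 0.19, adjusted p = 0.00337) and MNAT1, a subunit of the CDK7 kinase complex (−1.08, SE 0.22, adjusted p = 0.00257), fell. The fifth gene that passed was SUPT5H, a subunit of the pausing factor DSIF that P-TEFb phosphorylates, at 0.77 (SE 0.24, adjusted p = 0.0409) and at 0.56 after the GC correction, where it did not pass. DESeq2 did not call SUPT5H (0.78), which was at 1.28 with control KD 1 omitted and at 0.41 with control KD 2 omitted. AFF4, the scaffold of the super elongation complex, was at 0.25 (SE 0.21), short of the threshold. The median over the tested elongation genes was 0.01 without control KD 1 and 0.09 without control KD 2. It was 0.09 without PSME4 KD 1 and 0.003 without PSME4 KD 2.

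Immediate-early genes, many of which are switched on by release of paused polymerase, had 6 decreases among 25 tested genes, and 19 did not pass. That share of 24.0% stands beside 6.00% of all tested genes that were lower and 10.6% in either direction. The median log2 fold change was −0.28. With control KD 1 left out that median was −0.46, and with control KD 2 left out it was −0.08. Omitting PSME4 KD 1 gave −0.47, and omitting PSME4 KD 2 gave 0.01. JUN, a subunit of the transcription factor AP-1, was at 43.8 (control KD 1), 54.1 (control KD 2), 25.2 (PSME4 KD 1) and 11.6 CPM (PSME4 KD 2) (−1.41, SE 0.26, adjusted p = 0.000927). FOSB, its partner, was at 5.45, 11.8, 4.40 and 0.459 CPM in the same order (−1.82, SE 0.48, adjusted p = 0.0148). DESeq2 did not call FOSB, which stood at −4.20 with PSME4 KD 1 omitted, at −1.16 with control KD 2 omitted and at −0.93 with PSME4 KD 2 omitted. KLF6 (−0.68, SE 0.20, adjusted p = 0.0282) and JUND (−0.70, SE 0.21, adjusted p = 0.0293) fell by less. Without PSME4 KD 2 JUN was at −0.93, and without control KD 1 JUND was at −0.43. PSME4 KD 2 was the lowest library for JUN and FOSB, while PSME4 KD 1 was the lowest for RN7SK. Over the fits with 1 library left out, JUN ranged from −2.07 to −0.93 and JUND from −0.93 to −0.43.

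**Figure D5:**
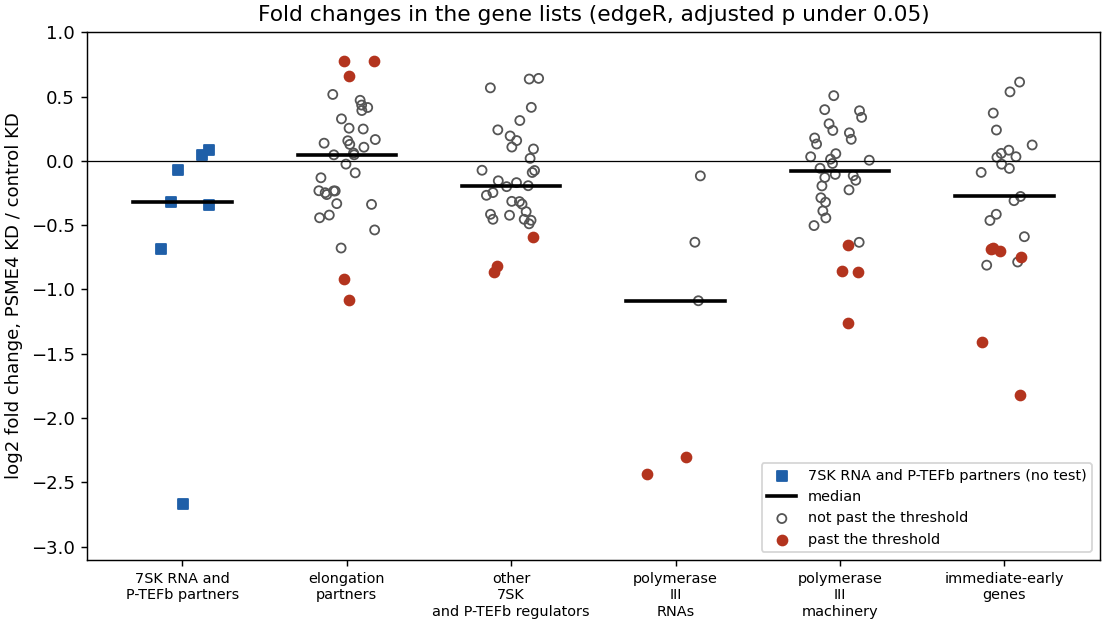
Log2 fold change of the members and of each tested gene of the 5 lists, with the median of each list as a bar and genes past the threshold filled. The polymerase III RNAs lie lowest, with a median of −1.09, and the elongation partners hold genes past the threshold on both sides of 0.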

How the data were processed

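Polyadenylated RNA of A549 cells was made into libraries with a Lexogen SENSE kit, per the labels' protocols. The submitters' processing notes name cutadapt, STAR, DESeq2 and hg38. No source used here gives the counter, whether it used strand, or its annotation. The deposited table holds raw counts per gene, normalised signal values (counts divided by 1 size factor per library), regularised log2 values and the authors' own log2 fold changes and p-values. Only the deposited counts were fitted.

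In R 4.3.3 with edgeR 4.0.16, filterByExpr kept 13497 of 15037 genes. After TMM scaling, glmQLFit and glmQLFTest used the group as the only term, with Benjamini-Hochberg adjustment at 0.05. SE is the size of the log2 fold change over the root of F. The steps were tested on simulated data. Alternatives were DESeq2 1.42.0, its size factors, library size alone, limma 3.58.1 voom, other count filters (none, or 50 counts in 2 libraries), a replicate block, a lowess GC correction (span 0.4) and each library left out. Transcript lengths, GC content, sequences and positions come from GENCODE 29 on GRCh38, the assembly of hg38, where 14287 rows were found under their symbol, 198 under an earlier one and 552 not. Named genes were the members, PSME4, up to 4 genes of each list with the smallest p past the threshold, all tested polymerase III RNAs and the 5 genes nearest to RN7SK in pattern. SUPT5H, AFF4, HEXIM2 and the marker genes were named after their values were seen. The members and lists were chosen with earlier results of these data known.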

Additional observations from a re-analysis of the deposited data

How the results depend on the processing

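The fold change of RN7SK kept its sign in all 12 alternatives, as did those of HEXIM1, LARP7 and CDK9, while those of MEPCE, CCNT1 and CCNT2 changed sign in some. With 1 library left out, RN7SK ranged from −3.44 to −1.61, the members called by edgeR from 0 to 1 and all genes changed from 43 to 281. In the same fits the calls ranged from 0 to 0 for elongation partners and for polymerase III machinery, from 0 to 1 for other 7SK and P-TEFb regulators, from 0 to 2 for polymerase III RNAs and from 0 to 2 for immediate-early genes. In these fits the single library of a group is assumed to vary like the other group. The 2 members called with a filter of 50 counts in 2 libraries, by limma voom or with the replicate block were RN7SK and LARP7. DESeq2 called 0 members and 0 polymerase III RNAs. Over all genes the filter of 50 counts called 1557 of 11100 and limma voom 1394 of 13497. The replicate block called 1554 of 13497 and DESeq2 1129 of 15037. The filter of 50 counts gave 1 polymerase III RNA, RMRP, since it removed RPPH1 before the test. It gave 6 other regulators, and library size alone gave 5 other regulators. Replicate numbers were shared between the groups, but the differences between replicate 1 and 2 of each group had a correlation of −0.043 over 8748 genes, so the numbers were not taken to pair the libraries. The replicate block gave 1554 genes, RN7SK at −2.51, 2 members and 5 other regulators, and left the counts of the other lists as they were. Apart from the removal of RPPH1 by that count filter, the cause of these shifts was not tested. RN7SK rests on 21 to 269 counts a library, which sets its counting error.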
